A study of Homo sapiens with 10 samples.

Results

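The LSD1-CoREST complex genes analysed here were KDM1A, RCOR1, RCOR3, HDAC1, HDAC2, PHF21A, HMG20B and ZNF217, 8 genes of the 20535 listed in each table of expression values. They were chosen by name as subunits or partners of one histone-modifying complex, and all 8 were found in each of the 10 tables. RNA-seq was read in K562, an erythroleukemia cell line, in 5 groups of 2 libraries. By their labels, the K group carried dCas9-KRAB, the L group dCas9-LSD1, the LK group enCRISPRi-LK (dCas9-LSD1 together with MCP-KRAB) and the KL group enCRISPRi-KL (dCas9-KRAB together with MCP-LSD1), and these 4 groups carried sgRNAs to HS2, an enhancer of the β-globin locus. The control group carried sgGal4, a nontargeting sgRNA, and its labels name no effector, so whether these cells held a repressor was not given in the labels. The dCas9 fusions were expressed from a doxycycline-inducible promoter in transduced and sorted cell populations. Values are in TPM, a gene's share of all transcripts, corrected for transcript length and scaled to a fixed total. The study calls the libraries of a group experiments, but neither it nor the labels say whether they came from separate cultures, so the p-values measure only the spread between these libraries, which may be technical.

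LSD1, the product of KDM1A, is a demethylase that removes methyl groups from mono- and dimethylated lysine 4 of histone H3. In the complex, the CoREST protein RCOR1 joins LSD1 to the deacetylases HDAC1 and HDAC2 and lets it act on nucleosomes. PHF21A (BHC80) reads unmethylated lysine 4, HMG20B (BRAF35) binds DNA and ZNF217 is a zinc-finger protein found with the complex. In erythroid cells the complex is brought to its targets by DNA-binding repressors such as GFI1B, and LSD1 was also 1 of the effectors used here, so KDM1A reads from a construct and from the endogenous gene cannot be told apart.

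The genes lie on 6 chromosomes (hg19). KDM1A spans chr1:23345936-23410182 on the plus strand with 21 exons in its main transcript. RCOR1 spans chr14:103058986-103196898 (plus strand, 12 exons), and RCOR3 spans chr1:211431719-211489727 (plus strand, 12 exons). HDAC1 lies at chr1:32757684-32799236 (plus strand, 14 exons) and HDAC2 at chr6:114254192-114332472 (minus strand, 14 exons). PHF21A spans chr11:45950870-46143005 (minus strand, 19 exons), HMG20B chr19:3572775-3579086 (plus strand, 10 exons) and ZNF217 chr20:52183610-52226446 (minus strand, 6 exons). For HMG20B, 2.32% of the 75-base windows of its main transcript also occur in a transcript of MFSD12, for ZNF217 1.12% occur in another gene, and for the remaining 6 genes none do.

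The promoters of 4 members are shown because these genes carry the results below: KDM1A is the member that passed the test, and RCOR1, PHF21A and HMG20B are those that lay under both sgGal4 libraries in all 8 sgHS2 libraries. The sequences are from RefSeq (GRCh38.p14) and run 5′ to 3′ on the gene's own strand over 300 bases around the start site. Capitals mark the GC box (GGGCGG) and the CCAAT box (CCAAT) on either strand.
KDM1A (chr1:23019218-23019517, plus strand): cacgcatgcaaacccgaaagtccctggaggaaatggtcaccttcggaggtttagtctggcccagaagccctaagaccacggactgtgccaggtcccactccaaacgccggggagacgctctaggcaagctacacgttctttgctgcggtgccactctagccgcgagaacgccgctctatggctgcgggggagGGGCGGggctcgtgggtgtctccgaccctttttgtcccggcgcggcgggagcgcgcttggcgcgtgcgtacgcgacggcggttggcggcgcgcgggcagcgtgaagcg
RCOR1 (chr14:102592399-102592698, plus strand): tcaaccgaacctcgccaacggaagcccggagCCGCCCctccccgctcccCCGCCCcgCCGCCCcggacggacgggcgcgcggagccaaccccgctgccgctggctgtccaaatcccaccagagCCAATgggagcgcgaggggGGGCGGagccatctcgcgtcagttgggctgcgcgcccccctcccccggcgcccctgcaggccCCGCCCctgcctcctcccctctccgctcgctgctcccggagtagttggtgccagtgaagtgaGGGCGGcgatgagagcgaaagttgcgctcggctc
PHF21A (chr11:46121405-46121704, minus strand, the first of 3 start sites): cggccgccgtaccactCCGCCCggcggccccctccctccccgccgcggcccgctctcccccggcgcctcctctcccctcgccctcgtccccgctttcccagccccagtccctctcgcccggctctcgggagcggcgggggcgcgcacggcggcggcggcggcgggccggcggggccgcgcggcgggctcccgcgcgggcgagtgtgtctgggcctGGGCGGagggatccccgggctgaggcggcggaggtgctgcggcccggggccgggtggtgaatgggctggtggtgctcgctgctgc
HMG20B (chr19:3572694-3572993, plus strand): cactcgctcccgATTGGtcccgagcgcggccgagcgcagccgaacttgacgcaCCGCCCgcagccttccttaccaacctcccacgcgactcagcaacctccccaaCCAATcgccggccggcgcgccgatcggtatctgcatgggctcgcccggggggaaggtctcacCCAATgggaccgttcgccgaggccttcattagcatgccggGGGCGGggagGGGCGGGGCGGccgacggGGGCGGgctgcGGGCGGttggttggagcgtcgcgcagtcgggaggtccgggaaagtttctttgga

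All 8 members had a promoter among the 35116 in the table, 11 start sites in total. The RCOR1 and HMG20B promoters each hold 6 GC boxes, the PHF21A promoter shown holds 2 and that of KDM1A holds 1. Of all promoters in the table, 45.0% hold at least 1 GC box, and of the 11 member start sites only that of HDAC2 and the second of PHF21A hold none. CCAAT boxes occur once in RCOR1 and HDAC1, 2 times in the second start site of RCOR3 and 3 times in HMG20B, so that 4 of the 11 hold at least 1, against 34.6% of all promoters. The GATA motif AGATAA, present in 10.3% of all promoters, was not found in any of the 11. The letters match in these windows only, and no binding was measured here.

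As a check of the cell line, 8 of 9 erythroid marker genes, among them HBE1, HBG1, HBZ and TFRC, had a mean of at least 1 TPM, and the remaining gene, GATA1, was listed at 0 in all 10 libraries. A value of 0 in these tables is reported as listed, since GATA1 is a gene that K562 cells use. Of 6 markers of other cell types, ALB, CD3E and MS4A1 were listed at 0 throughout, CD14 stayed below 1 TPM, COL1A1 had at most 1.88 TPM and EPCAM 26.9 to 65.2 TPM. Summed, they had 45.3 and 48.5 TPM in the sgGal4 libraries and 27.8 to 67.8 TPM in the sgHS2 libraries, which overlap. The 13 mitochondrial genes took 53.6% of the listed TPM in sgGal4 replicate 1 and 39.9% to 46.6% in the other 9 libraries, and their part in the differences below was read from a rescaling without them. In bulk RNA, fewer cells with a transcript and less transcript per cell cannot be told apart.

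The catalytic subunit gene differed in 1 group. KDM1A had 25.2 and 33.5 TPM in the sgGal4 libraries (replicates 1 and 2), 29.2 and 27.7 TPM under the K label, 105 and 84.2 TPM under L, 27.4 and 30.6 TPM under LK and 26.8 and 26.6 TPM under KL. Both L libraries stood above the other 8, which together ran from 25.2 to 33.5 TPM, the range of the 2 controls. L and sgGal4 did not overlap for 41.3% of all genes, and the share with L above the other 8 libraries was not counted. In order of group mean, L was followed by sgGal4, LK, K and KL, and among these last 4 only the neighbours K and KL did not overlap, at a difference of means of less than 2 TPM.

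KDM1A was set beside ZNF10, a gene whose KRAB domain is in common use in such repressors. Whether transcripts of the constructs are counted under either gene was not tested, so the levels do not show which constructs the libraries held. The gene that gave the KRAB domain of these constructs is not given in the sources used here. ZNF10 reached 365 and 360 TPM under KL, 128 and 136 TPM under L and 36.8 and 31.5 TPM under LK, against 1.18 and 3.80 TPM under the K label and 0.97 and 1.89 TPM under sgGal4. Levels of the pair did not follow the labels: the K label names KRAB and its libraries were near the control for ZNF10, the L label names LSD1 alone and its libraries were high for both genes, and the LK and KL labels name LSD1 and their libraries were at the control level for KDM1A. HBE1, the embryonic globin gene of the locus that HS2 serves, had 1376 and 1620 TPM with sgGal4, 1019 and 986 TPM with L, 695 and 759 TPM with K, 557 and 458 TPM with LK and 384 and 361 TPM with KL. All 8 libraries labelled sgHS2 were thus below both controls for HBE1, as for 5.29% of all genes, and the 5 groups did not overlap. The groups are called by their labels throughout, and each direction below holds for the labelled libraries.

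**Figure D1:**
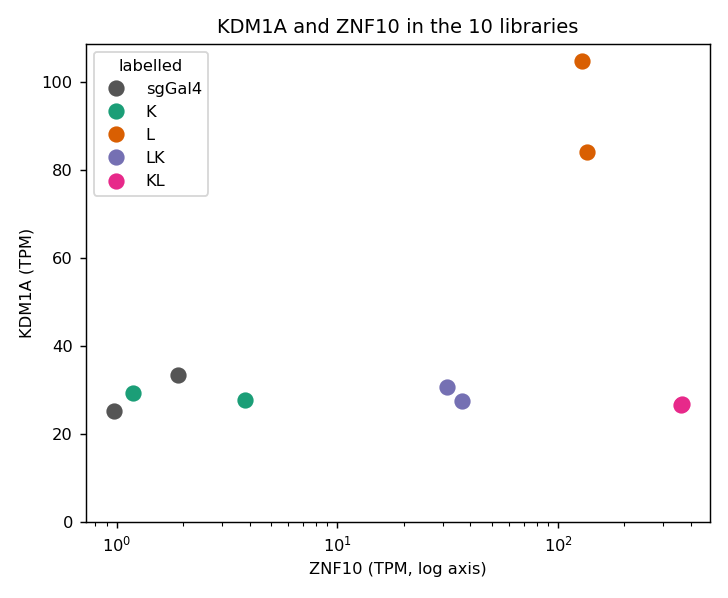
KDM1A in TPM (linear axis) against ZNF10 in TPM (log axis), 1 point per library, coloured by label, with the 2 KL points nearly on top of each other. The L libraries are high on both axes, at 84.2 and 105 TPM of KDM1A, and the LK and KL libraries are raised for ZNF10 only.

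Against sgGal4, KDM1A was 3.15-fold higher in the libraries labelled L (log2 fold change 1.66 on the log2(TPM + 1) scale, standard error 0.224, adjusted p = 0.00256 by limma with Benjamini-Hochberg adjustment). It was 1 member called of 8, where 0.869% of the 10127 genes tested were called in that comparison, and it ranked 13 by p-value. Without L replicate 1, the library with 105 TPM, the log2 fold change was 1.5 and the call was lost (adjusted p = 0.0622). In the other groups the log2 fold change of KDM1A was -0.03 with K (95% interval -0.51 to 0.45), -0.00 with LK (-0.49 to 0.48) and -0.12 with KL (-0.60 to 0.36). Their signs are not stable, since leaving out single libraries took the K value between -0.23 and 0.17, the LK value between -0.20 and 0.19 and the KL value between -0.32 and 0.080. These intervals contain no difference as large as that of the L libraries.

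The labels that name LSD1 were also compared directly. KDM1A was higher in the libraries labelled L than in those labelled LK and KL by 1.72 on the log2 scale (standard error 0.194, adjusted p = 0.00200), the second smallest p-value of all genes, where 0.188% of genes were called, and both L libraries were above all 4 of the others, as in 7.01% of genes. That call was lost without L replicate 1, with a log2 difference of 1.56 (adjusted p = 0.0763). The 3 groups labelled with LSD1, averaged, were 0.54 above K (standard error 0.183, adjusted p = 0.634), where 0.00987% of genes were called. This average mixes unlike groups. Mean KDM1A was 94.4 TPM with L, 29.0 TPM with LK and 26.7 TPM with KL, against 28.5 TPM with K.

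Between the dual effectors (LK and KL) and the single effectors (K and L), KDM1A was -0.88 on the log2 scale, a value that did not pass the threshold (standard error 0.159, adjusted p = 0.0582), with 0.0889% of genes called. It passed in 5 of 9 alternative settings, with adjusted p between 0.0256 and 0.155. The K and L libraries entering this mean are far apart, at 28.5 ± 1.10 and 94.4 ± 14.5 TPM (SD, n = 2).

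**Figure D2:**
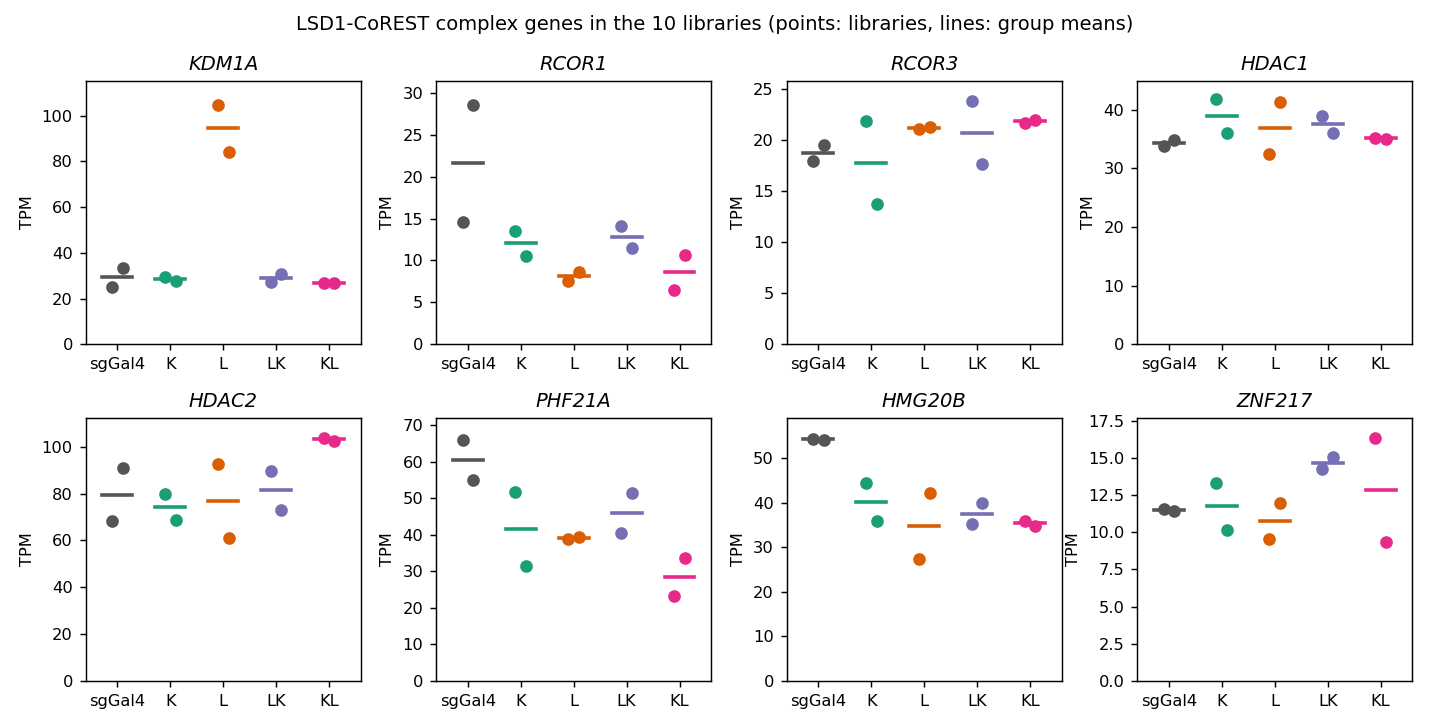
TPM of the 8 complex genes in the 10 libraries, 1 panel per gene, with points for libraries and lines for the means of the 5 groups. KDM1A is high in both L libraries, and RCOR1, PHF21A and HMG20B are highest in the sgGal4 libraries.

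The scaffold genes RCOR1 and RCOR3 differed in their pattern. RCOR1 had 14.6 and 28.5 TPM with sgGal4, 13.6 and 10.6 TPM with K, 7.60 and 8.63 TPM with L, 14.1 and 11.5 TPM with LK and 6.50 and 10.7 TPM with KL. All 8 sgHS2 libraries lay below both controls, although the highest of them, at 14.1 TPM, was close to sgGal4 replicate 1. The log2 fold change from sgGal4 was -1.24 with L (standard error 0.360, adjusted p = 0.141) and -1.20 with KL (standard error 0.360, adjusted p = 0.122), neither of which passed the threshold. The sgGal4 libraries differed from each other by more than those of any other group did for this gene, and without sgGal4 replicate 2 the L and KL values were -0.78 and -0.74.

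RCOR3, a paralog of RCOR1, had 17.9 and 19.5 TPM with sgGal4 and 13.7 to 23.8 TPM over the 8 sgHS2 libraries. Its K libraries had 21.9 and 13.7 TPM, its L libraries 21.1 and 21.3 TPM, its LK libraries 23.8 and 17.6 TPM and its KL libraries 21.7 and 22.0 TPM. The order of group means was KL, L, LK, sgGal4 and K, and of the neighbours only KL and L did not overlap. The L and KL libraries lay wholly above the controls, where 41.3% and 42.9% of all genes did not overlap with sgGal4. Of the 8 sgHS2 libraries 6 were above both controls and 2 below both. RCOR2, the third paralog, was at 0.61 to 3.87 TPM and was not called against sgGal4 in any group.

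Of the 8 members, the deacetylase genes had the smallest ratios of highest to lowest library. HDAC1 had 33.8 and 34.9 TPM with sgGal4, 41.9 and 36.0 TPM with K, 32.4 and 41.4 TPM with L, 39.0 and 36.1 TPM with LK and 35.2 and 35.0 TPM with KL, and its highest library was 1.29 times its lowest. HDAC2, the member with the highest mean over the 10 libraries, although below KDM1A in both L libraries, had 68.4 and 90.7 TPM with sgGal4, 79.8 and 68.5 TPM with K, 92.6 and 61.1 TPM with L, 89.7 and 73.1 TPM with LK and 104 and 102 TPM with KL, with a highest library 1.70 times its lowest. Both KL libraries were above the other 8 for HDAC2, and the 95% interval of its log2 difference between KL and sgGal4 ran from -0.09 to 0.86. KL and sgGal4 did not overlap for 42.9% of all genes, and the share with KL above the other 8 libraries was not counted. For HDAC1, 7 of the 8 sgHS2 libraries were above both controls and 1 was below both. Its K, LK and KL libraries lay wholly above sgGal4, where 43.6%, 45.7% and 42.9% of all genes did not overlap. The 95% intervals for HDAC1 against sgGal4 lay between -0.43 and 0.64 over the 4 groups.

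PHF21A, the reader of unmethylated lysine 4, had 65.9 and 55.1 TPM with sgGal4, 51.8 and 31.5 TPM with K, 38.8 and 39.5 TPM with L, 40.4 and 51.5 TPM with LK and 23.2 and 33.6 TPM with KL. Every sgHS2 library lay below the controls, and the KL group had the lowest mean, 28.4 ± 7.39 TPM against 60.5 ± 7.60 TPM with sgGal4 (SD, n = 2). The log2 fold change with KL was -1.08 (standard error 0.266, adjusted p = 0.0651), which did not pass the threshold. It passed in 2 of 9 alternative settings, with adjusted p = 0.0411 at a mean of at least 10 TPM and 0.0371 without mitochondrial genes, over a range that reached 0.181. Over the 10 fits with a library left out, the log2 fold change with KL lay between -1.34 and -0.82. With L the value was -0.61 (standard error 0.266, adjusted p = 0.349).

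LK and KL did not overlap for PHF21A, as for 42.8% of all genes, with LK higher by 0.69 on the log2 scale (standard error 0.266, adjusted p = 0.404). None of the 8 members was called between LK and KL, where 0.385% of genes were called, and PHF21A was the 1 member with an unadjusted p under 0.05, as had 9.84% of all genes.

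HMG20B, the HMG-box subunit, had 54.5 and 54.2 TPM with sgGal4, 44.4 and 35.8 TPM with K, 27.5 and 42.4 TPM with L, 35.2 and 40.0 TPM with LK and 36.0 and 34.9 TPM with KL. Again no sgHS2 library reached the controls. Its log2 fold change was -0.66 with L (adjusted p = 0.241). It was -0.60 with KL (adjusted p = 0.240) and, for LK, -0.52 (adjusted p = 0.333), each with a standard error of 0.236 and none past the threshold. ZNF217 showed no such order, with 11.5 and 11.4 TPM in the controls, 13.3 and 10.2 TPM with K, 9.58 and 12 TPM with L, 14.2 and 15.1 TPM with LK and 16.4 and 9.33 TPM with KL. All neighbours in the order of its group means overlapped.

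**Figure D3:**
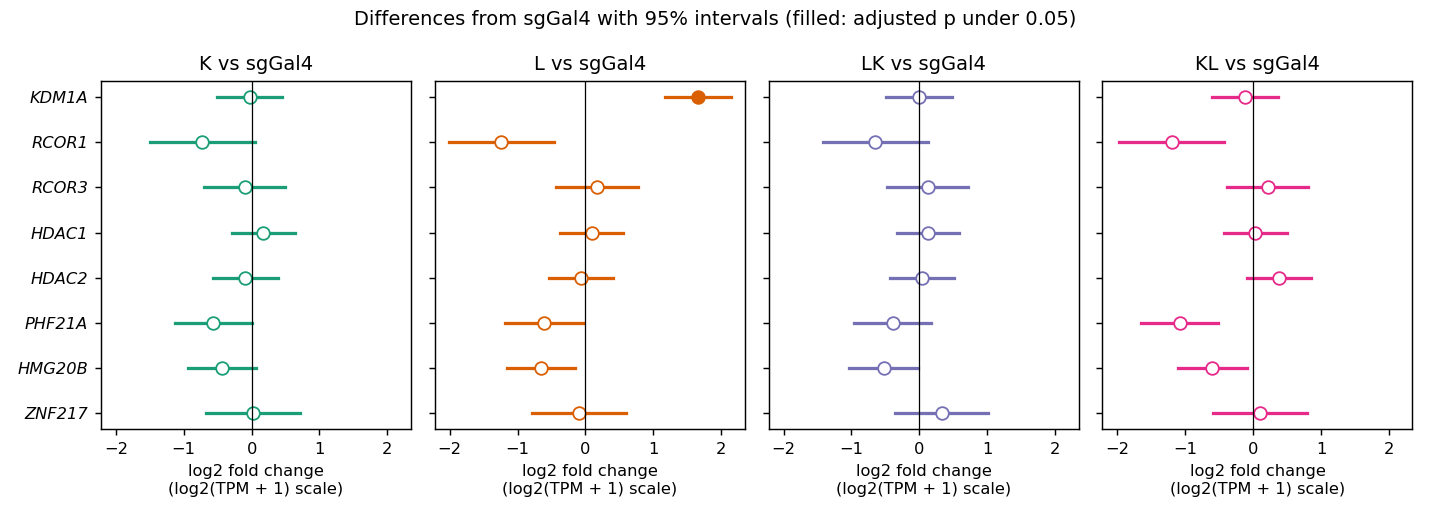
Log2 fold change of each complex gene against sgGal4 on the log2(TPM + 1) scale, 1 panel per labelled group, with 95% intervals from limma and filled points for adjusted p under 0.05. The 1 filled point is KDM1A with L, and RCOR1, PHF21A and HMG20B lie left of 0 in all 4 panels.

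Counted over the members, 0 of 8 passed the threshold with K (1.62% of all genes called), LK (2.00%) and KL (1.36%), and 1 of 8 with L. At an unadjusted p under 0.05 there were 0 with K, 1 with LK, 3 with KL and 4 with L, where 15.6%, 14.2%, 14.7% and 12.8% of all genes fell. Libraries of the 2 groups did not overlap for 4 members with K (43.6% of all genes), 5 with L (41.3%), 5 with LK (45.7%) and 6 with KL (42.9%), so a lack of overlap between groups of 2 was common among all genes. The median log2 fold change of the 8 members was -0.10 for K, where that of all genes tested was 0.06. For L the pair was -0.08 and 0.00, for LK 0.02 and 0.03, and for KL -0.04 and 0.05. The 4 comparisons share the sgGal4 libraries, so the members below the controls in each of them are not 4 separate observations.

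The 4 sgHS2 groups were then averaged against sgGal4, a comparison added after the values above had been seen, whose members were picked from those same libraries. RCOR1 was -0.95 on the log2 scale (standard error 0.285, 95% interval -1.56 to -0.34, adjusted p = 0.0917), PHF21A -0.66 (standard error 0.210, adjusted p = 0.112) and HMG20B -0.56 (standard error 0.186, adjusted p = 0.132). None of the 8 was called by limma, with 3.26% of all genes called, and 3 had an unadjusted p under 0.05, with 17.1% of all genes. Libraries lay wholly below the controls for 3 of 8 members and for 5.29% of all genes.

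After the mitochondrial genes were left out and the libraries rescaled, RCOR1 was -1.05 and passed the threshold (adjusted p = 0.0423). Without sgGal4 replicate 2 its value was -0.50 (adjusted p = 0.565). Over the 10 libraries, Pearson's r with the mitochondrial share was -0.01 for RCOR1, 0.36 for PHF21A and 0.26 for HMG20B. These r are a description over TPM values, which are shares of a total. The values listed summed to between 790470 TPM (K replicate 2) and 844414 TPM (sgGal4 replicate 1). Among the members, RCOR1, PHF21A and HMG20B were the most alike, with r of 0.70 between RCOR1 and PHF21A, 0.72 between RCOR1 and HMG20B and 0.68 between PHF21A and HMG20B on the log2 scale over the 10 libraries, in which the 2 controls are highest for each.

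Since TPM is corrected for transcript length, proportions between members could be read within a library. KDM1A transcripts numbered 1.72 and 1.17 for each RCOR1 transcript with sgGal4, 2.15 and 2.62 with K, 13.8 and 9.75 with L, 1.94 and 2.67 with LK and 4.12 and 2.5 with KL. Every sgHS2 library had a higher ratio than both controls, and the L libraries were set apart from the rest. The ratio is made from the RCOR1 values given above, so its order against the controls is not a separate observation. KDM1A made up 8.64% and 10.2% of the summed TPM of the 8 members with sgGal4, and 31.3% and 27.1% with L. Its share of KDM1A and KDM1B, the paralogous demethylase, was 85.0% and 82.4% with L and between 55.2% and 61.3% in the other 8 libraries.

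RCOR1 was 44.1% and 57.6% of the 3 CoREST paralogs with sgGal4, 37.2% and 41.9% with K, 24.4% and 25.5% with L, 35.2% and 36.2% with LK and 22.0% and 31.2% with KL. The controls were above all 8 sgHS2 libraries, as for the RCOR1 values from which this share is made. RCOR3 was the most abundant paralog in each sgHS2 library and in sgGal4 replicate 1. HDAC1 was 25.3% to 40.4% of HDAC1 and HDAC2 over the 10 libraries, and the 2 L libraries alone, at 25.9% and 40.4%, covered most of that range. These proportions are described without a test.

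**Figure D4:**
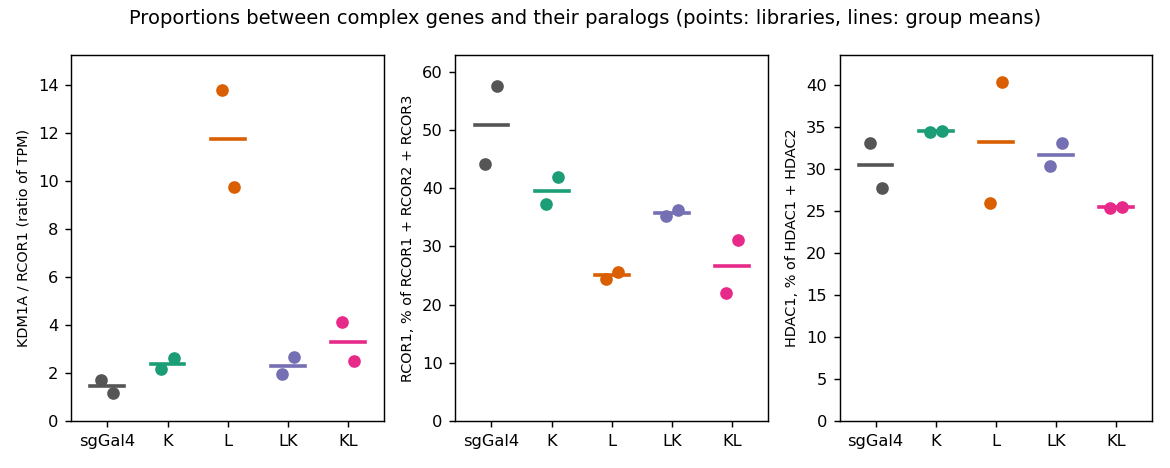
Proportions between complex genes and paralogs in the 10 libraries, from the left KDM1A over RCOR1 (ratio of TPM), RCOR1 as a percent of the 3 RCOR genes, and HDAC1 as a percent of HDAC1 and HDAC2. Points are libraries and lines group means, and the L libraries reach 9.75 and 13.8 in the first panel.

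Genes that recruit LSD1 or copurify with CoREST were read from a list of 21, of which 18 were expressed enough to test. Of these, 0 were called with K and with LK (1.62% and 2.00% of all genes called), 1 rose with L (0.869%) and 1 rose with KL (1.36%). Their median log2 fold change was 0.11, 0.06, 0.18 and 0.24 (K, L, LK and KL), against 0.06, 0.00, 0.03 and 0.05 over all genes. GFI1B, the erythroid repressor that brings LSD1 and CoREST to DNA, had 25.1 and 32.7 TPM with sgGal4 and 62.8 and 55.8 TPM with L, above all other libraries, whose highest was 45.2 TPM. The share of genes with L above all other libraries was not counted. The rise of GFI1B with L was 1.02 on the log2 scale (standard error 0.222, adjusted p = 0.0491). That call was at the edge of the threshold: it held in 4 of 9 alternative settings and, of the 10 fits with a library left out, only in that without sgGal4 replicate 2, with adjusted p from 0.0379 to 0.224 over those fits.

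BCL11A, a repressor of the fetal globin genes found with LSD1-CoREST and NuRD, had 1.20 and 1.72 TPM with sgGal4 and 9.84 and 10.0 TPM with KL, where the other 6 libraries had 1.58 to 4.75 TPM. It rose with KL by 2.16 on the log2 scale (standard error 0.414, adjusted p = 0.0168), a call kept in 7 of 8 alternative settings. It was lost without sgGal4 replicate 1 (adjusted p = 0.113), KL replicate 1 (0.0944) or KL replicate 2 (0.131).

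HDAC1 and HDAC2 also belong to the NuRD and SIN3 complexes. By limma against sgGal4, 0 of the 10 tested NuRD genes were called with K, L, LK or KL. Of all genes, 1.62%, 0.869%, 2.00% and 1.36% were called. At an unadjusted p under 0.05 there were 0, 1, 2 and 2 NuRD genes, against 15.6%, 12.8%, 14.2% and 14.7% of all genes. Of 13 SIN3 genes 1 was called with LK, where 2.00% of all genes were: BRMS1, a SIN3 subunit. BRMS1 had 44.9 and 24.6 TPM with sgGal4 and 95.3 and 75.2 TPM with LK (log2 fold change 1.32, standard error 0.276, adjusted p = 0.0259). The call held in 3 of 9 alternative settings and was lost without sgGal4 replicate 2 (adjusted p = 0.125), LK replicate 1 (0.226) or LK replicate 2 (0.124). In the average of the 4 sgHS2 groups (3.26% of all genes called) BRMS1 was 1.02 higher (adjusted p = 0.0220, past the threshold in 4 of 9 alternative settings), and 0.59 higher without sgGal4 replicate 2 (adjusted p = 0.238).

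Among 7 tested HDAC genes outside the complex, 1 was called with KL, where 1.36% of all genes were: HDAC9, a class IIa deacetylase. It had 23.0 and 25.1 TPM with sgGal4, 8.98 and 9.34 TPM with K, 10.8 and 5.59 TPM with L, 15.6 and 5.45 TPM with LK and 1.28 and 1.21 TPM with KL. HDAC9 fell by 3.48 on the log2 scale with KL (standard error 0.435, adjusted p = 0.000829), a call that held in 9 of 9 alternative settings and in all 10 fits with a library left out. LK was 2.21 above KL (adjusted p = 0.0480), and this call was kept in 2 of the 10 fits with a library left out, those without L replicate 1 or 2, with a highest adjusted p of 0.434 without LK replicate 1. In the average of the 4 groups HDAC9 was -1.89 (adjusted p = 0.00861), a call lost without sgGal4 replicate 1 (adjusted p = 0.0970) or replicate 2 (0.0733). HDAC6 and HDAC8 were listed at 0 in all 10 libraries, and HDAC3 was not called in any comparison with sgGal4.

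Enzymes that write or erase methylation of histone H3 lysine 4, and partner subunits of the writers, were tested for 11 of 13 listed genes. By limma against sgGal4, 0 were called with K, L, LK or KL, against 1.62%, 0.869%, 2.00% and 1.36% of all genes. At an unadjusted p under 0.05 there were 3, 1, 2 and 1, where 15.6%, 12.8%, 14.2% and 14.7% of all genes fell. KDM5B demethylates the trimethylated form that LSD1 cannot use. It had 43.9 and 45.0 TPM with sgGal4 and 14.0 to 30.8 TPM in the 8 sgHS2 libraries. All 8 were below the controls, as for 5.29% of all genes. In the average of the 4 groups, where 3.26% of all genes were called, it was -1.01 on the log2 scale (standard error 0.258, adjusted p = 0.0484). That call was kept in 4 of 9 alternative settings and in 2 of the 10 fits with a library left out, those without LK replicate 2 or KL replicate 1, and the highest adjusted p was 0.245 without sgGal4 replicate 1. The median log2 fold change of the tested genes of this list lay within -0.03 to 0.20 over the 4 single groups. Of 3 myeloid genes that respond to LSD1 inhibition, CD86, ITGAM and LY96, none reached the mean of 1 TPM needed for a test.

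Of the 8 tested erythroid markers, 2 were called with K (1.62% of all genes), 2 with L (0.869%), 2 with LK (2.00%) and 4 with KL (1.36%). HBE1 was the member of this list that fell with K, and HBE1 and HBG2, a fetal globin gene, fell with LK. With KL, HBE1, HBG1 and HBG2 fell and HBZ, an embryonic globin gene outside the β-globin locus, rose. HBZ and KLF1, an erythroid transcription factor, rose with L, and KLF1 also rose with K. The calls of HBE1 with K, LK and KL were each kept in all 10 fits with a library left out. The call of KLF1 with K was kept in 1 of those 10 fits and that of HBZ with KL in 2, with adjusted p up to 0.176 and 0.273.

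**Figure D5:**
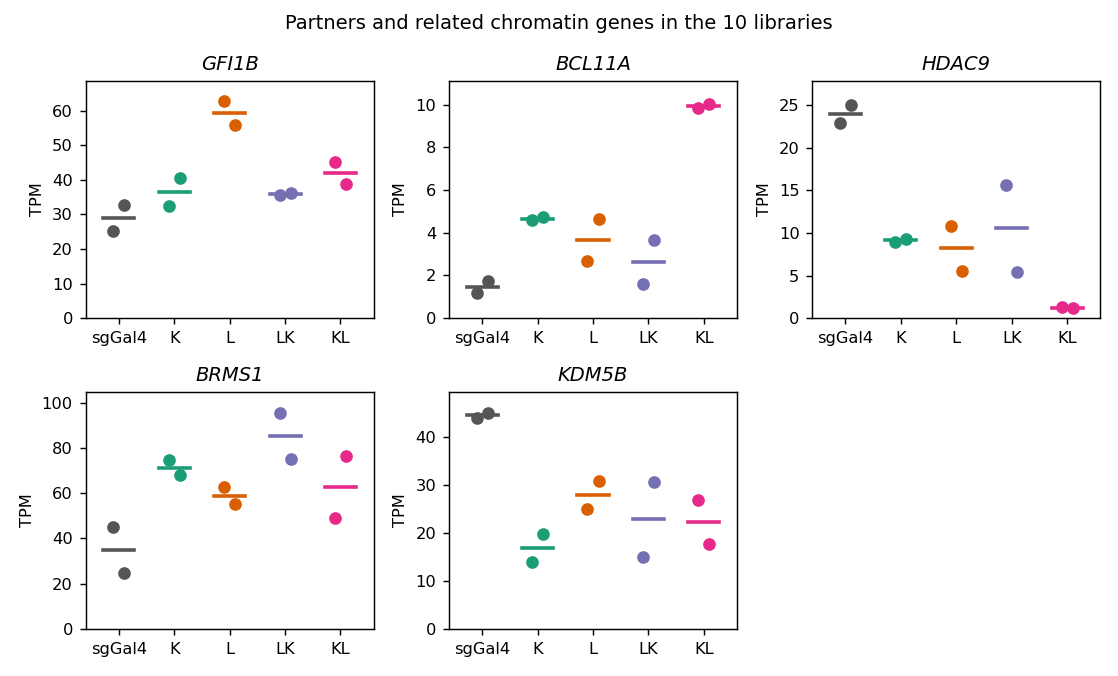
TPM of 5 related chromatin genes past the threshold in at least 1 comparison (GFI1B, BCL11A, HDAC9, BRMS1 and KDM5B) in the 10 libraries, with points for libraries and lines for group means. HDAC9 is at 1.21 and 1.28 TPM in the KL libraries and KDM5B is highest in both controls.

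The genes most like KDM1A over the 10 libraries, by Pearson's r of log2(TPM + 1), were CSPG5 (0.924), CNOT4 (0.905), FECH (0.898), C14orf79 (0.877) and TINAGL1 (0.877). CNOT4, a ubiquitin ligase of the CCR4-NOT complex, had 39.8 and 43.8 TPM with L and 26.9 to 32.4 TPM elsewhere. FECH, the enzyme of the last step of heme synthesis, had 92.0 and 104 TPM with L against 45.8 to 69.8 TPM in the other 8 libraries. In all 5 genes both L libraries were above the rest, so each r rests on those 2 libraries and is given as a description.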

How the data were processed

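RNA-seq of K562 cells was analysed in 10 libraries, 2 for each of 5 groups taken from the labels. The authors aligned reads to hg19 with STAR (version 2.5.2b), kept uniquely mapped reads and deposited 1 RSEM value in TPM per gene and library. TPM keeps no read totals, so depth is unknown, and the counts that the study's DESeq2 step needs could not be used. The study's methods and the labels name different library kits. Genes averaging 1 TPM or more (10127) were compared as log2(TPM + 1) with limma (version 3.58.1, R 4.3.3), all groups in 1 fit with a mean-variance trend (5 residual degrees of freedom), and Benjamini-Hochberg adjustment over all genes in each of 8 planned comparisons and 1 added later (threshold 0.05). A pseudocount of 1 understates the change of low genes. In simulated data with 10127 genes, K against sgGal4 recovered 35% of changes of 1 and 83% of changes of 2 on the log2 scale. L against LK and KL recovered 42% and 93%, and dual against single effectors 55% and 91%. False calls numbered 3, 9 and 1 in that order. Changes were placed only in genes above a set mean level, so recovery of lower genes was not measured. Positions are from GENCODE mapped to hg19 and promoters from RefSeq. All members were named with every value, genes of the lists of related factors and of erythroid markers where called or paralogous to a member, and the 5 genes most correlated with KDM1A. Some listed genes are not reported here. Members, lists and motifs were chosen with earlier results of these data known. Alternatives were another pseudocount (0.1), no filter or a mean of 10 TPM, median-of-ratios, quantile normalization, mitochondrial genes left out, no trend, only the groups compared, a replicate block, the log2 ratio of group means, and each library left out. For single genes they were computed for members with an unadjusted p under 0.05, for KDM1A against sgGal4 and for called list genes, ZNF10 included, and for called erythroid markers, which were added after the data had been seen.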

Additional observations from a re-analysis of the deposited data

Results flagged for a closer look

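The difference in KDM1A between libraries whose labels all name LSD1 stood out. By log2 difference, KDM1A in the L libraries exceeded the mean of LK and KL by 1.72 (adjusted p = 0.00200 by limma, adjusted p from 0.000566 to 0.0365 over 9 alternative settings), and both L libraries were above all 4 dual-effector libraries. The contrast with sgGal4 thus differed between groups by a test of the difference itself. Its cause was not tested.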

How the results depend on the processing

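The direction of all called members and list genes held in every alternative that tested them. Of the 2 calls of KDM1A, both held in 9 of 9 settings and in 9 of 10 fits with a library left out. Members past the threshold went from 0 to 1 with KL (PHF21A) at a mean of at least 10 TPM and without mitochondrial genes, from 0 to 1 for dual against single effectors (KDM1A) at a mean of at least 10 TPM, with median-of-ratios, with quantile normalization, without mitochondrial genes and with only the groups compared, and from 0 to 1 for the 4 groups averaged (RCOR1) without mitochondrial genes. With a library left out they ranged from 0 to 1 for L, KL, dual against single and L against LK and KL. The log2 fold change of KDM1A changed sign only with a library left out, from -0.23 to 0.17 with K, -0.20 to 0.19 with LK and -0.32 to 0.080 with KL. 

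Counts over all genes moved more, from main counts of 164 with K, 88 with L, 203 with LK, 138 with KL, 9 for dual against single, 39 for LK against KL, 19 for L against LK and KL, 1 for the LSD1 labels against K and 330 for the 4 groups averaged. In that order, they were 51, 37, 61, 83, 4, 20, 4, 9 and 185 with no filter. Without a trend they were 14 with K, 22 with L, 15 with LK, 75 with KL, 4 for dual against single, 17 for LK against KL, 4 for L against LK and KL and 99 for the 4 groups averaged. With only the groups compared they were 59 with K, 25 with L, 57 with LK, 66 with KL, 15 for dual against single, 23 for LK against KL and 5 for the LSD1 labels against K. Quantile normalization gave 151 with L, 15 for dual against single and 2 for the LSD1 labels against K, the last also 2 with median-of-ratios. Without mitochondrial genes 140 were called with L and 2 for the LSD1 labels against K, a pseudocount of 0.1 gave 5 for dual against single, and a mean of at least 10 TPM gave 3 for the LSD1 labels against K. With a library left out the counts ranged from 9 to 231 with K, 16 to 138 with L, 20 to 209 with LK, 49 to 167 with KL, 3 to 15 for dual against single, 3 to 39 for LK against KL, 2 to 22 for L against LK and KL, 1 to 5 for the LSD1 labels against K and 90 to 274 for the 4 groups averaged. A library left out of a group of 2 leaves a lone library assumed to vary like the other groups. The causes of these moves were not tested.

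Replicate numbers did not pair the libraries, since same-numbered deviations correlated between -0.0213 and 0.0229 over 10 pairs of groups. With the replicate block the genes called for L against LK and KL fell from 19 to 12, and KDM1A kept its call against sgGal4 with L (adjusted p = 0.00515). Leaving out sgGal4 replicate 2 moved the median log2 fold change of all genes with K from 0.06 to 0.19, and leaving out mitochondrial genes moved it to -0.06. With 2 libraries a group and unknown depth, members not called are not shown to be equal.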
